A study of Mus musculus with 9 samples.

Results

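The Arp2/3 complex starts a new actin filament on the side of an existing one, and so builds the branched actin networks of the fibroblast's leading edge and of endosomes. Its actin-related subunits Arp2 (gene Actr2) and Arp3 (Actr3) form the first units of the daughter filament, while the Arpc subunits hold them together and bind the mother filament. Arpc1 and Arpc5 are each encoded by a pair of paralogs, Arpc1a and Arpc1b, and Arpc5 and Arpc5l, and a complex holds a single member of each pair. The transcripts described here are those of the subunits, chosen by name: every probe set whose platform annotation gives a single symbol, that symbol being Actr2, Actr3, Arpc1a, Arpc1b, Arpc2, Arpc3, Arpc4, Arpc5 or Arpc5l. A probe set is a group of short oligonucleotides on the array that reads a transcript. The rule found 14 probe sets of 45101, for 6 of the 9 genes. Actr3 had 3, Arpc1a 1, Arpc2 2, Arpc4 2, Arpc5 2 and Arpc5l 4. Actr2 and Arpc3 had 0 under this annotation, and the 2 probe sets of Arpc1b carry several symbols, so these 3 genes were not analysed here.

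The data come from 9 Affymetrix arrays of NIH 3T3 cells, an established line of mouse fibroblasts. Cells were starved of serum, and all 3 groups, controls included, had cycloheximide, which blocks translation, at 3 µg/ml for 2 h. Control cells had no other drug, the second group had cytochalasin D at 2 µM for 90 min, and the third had latrunculin B at 5 µM together with cytochalasin D, also for 90 min. The third group's titles name latrunculin B alone; its agent label and the study design name both drugs, and it is called the double-drug group here. Cytochalasin D caps actin filaments and frees the coactivator MRTF from monomeric actin, whereas latrunculin B binds the monomers and keeps MRTF on them; MRTF works through serum response factor (SRF). The labels give the actin filaments of both drug groups as depolymerized and those of controls as normal. Each group has 3 arrays, which the design calls independent biological replicates and the titles number 1, 3 and 7. A single cell line was studied, at a single time of drug treatment.

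Median intensities of the arrays lay between 7.57 and 7.84. Of 10 fibroblast markers 9 passed the filter on dim probe sets described next, and Lum did not, with group means between 5.07 and 5.11. Of the markers of other cells, 3 of 11 for leukocytes, 4 of 8 for epithelial and 0 of 6 for endothelial cells passed, and Ptprc, the pan-leukocyte marker, lay between 5.07 and 5.14 in the group means. The summed level of the leukocyte markers ran from 258 to 307 in controls, from 228 to 257 with cytochalasin D and from 241 to 288 in the double-drug group, most of it from Cd14. Of 6 genes read as a check on the drugs, Srf, Acta2, Tagln, Vcl and Actg1 rose with cytochalasin D against control (limma, adjusted p between 0.00174 and 0.0195), and Actb had a log2 change of 0.24 (adjusted p = 0.125). Among all probe sets tested, 1.57% were called there. In the double-drug group against control 2 of the 6 were called higher in limma, beside 0.111% of all probe sets tested. All 6 had a higher level there at an unadjusted p under 0.05, a p that 1425 of all 27010 probe sets tested had in either direction. Their median log2 change against control was 1.71 with cytochalasin D and 0.83 with both drugs.

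The filter asked for an intensity over the 40th percentile of the array on at least 3 arrays, and 27010 probe sets passed it. Of the 14 subunit probe sets 11 passed, with at least 1 for each of the 6 genes. The other 3, 1 of Arpc5 and 2 of Arpc5l, stayed between 4.46 and 5.60 on all arrays, below the 40th percentile, and say nothing about their genes. Changes below are on the scale of log2(intensity + 16), with standard errors (SE) and 95% intervals from limma, and p-values are adjusted over all probe sets tested by Benjamini-Hochberg. A change is called at an adjusted p under 0.05. Where a gene has several probe sets, the brightest stands for it.

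With cytochalasin D, 1 of the 11 subunit probe sets was called, that of Arpc5, and 10 were not. Over all probe sets tested, 1.57% were called in this comparison. Arpc5 encodes the smallest subunit, which tethers Arp2 to the rest of the complex. Its intensity was 2137, 1872 and 1875 in control replicates 1, 3 and 7. It was 3516, 3346 and 3139 in the cytochalasin D arrays of the same numbers, and 2971, 2739 and 2472 in the double-drug arrays. The 3 groups did not overlap: every cytochalasin D value lay above every double-drug value, and every double-drug value above every control value. The group means were 1961 ± 152 and 3333 ± 189 (SD, n = 3) without and with cytochalasin D. Arpc5 thus rose by 0.76 on the log2 scale, which is 1.70-fold (SE 0.084, 95% interval 0.56 to 0.96, limma adjusted p = 0.00843). By its unadjusted p it stood at place 155 among the 27010. In RNA of whole cultures, more cells with a transcript and more of it per cell cannot be told apart.

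The double-drug group had an Arpc5 intensity of 2727 ± 250 (SD, n = 3). Against control its log2 change of 0.47 (95% interval 0.27 to 0.67, limma adjusted p = 0.167) was not called. With the replicate number as a block, which pairs these groups, it was called (adjusted p = 0.0269). Against the double-drug group, cytochalasin D alone gave a difference of 0.29 (95% interval 0.09 to 0.49, limma adjusted p = 0.676), not called either. Arpc5 was therefore ordered control, double-drug, cytochalasin D by level, and neighbouring groups did not overlap on these arrays. Without the block the test across all probe sets called neither neighbouring difference. With it, the difference between the drug groups was still not called (limma adjusted p = 0.0732).

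**Figure D1:**
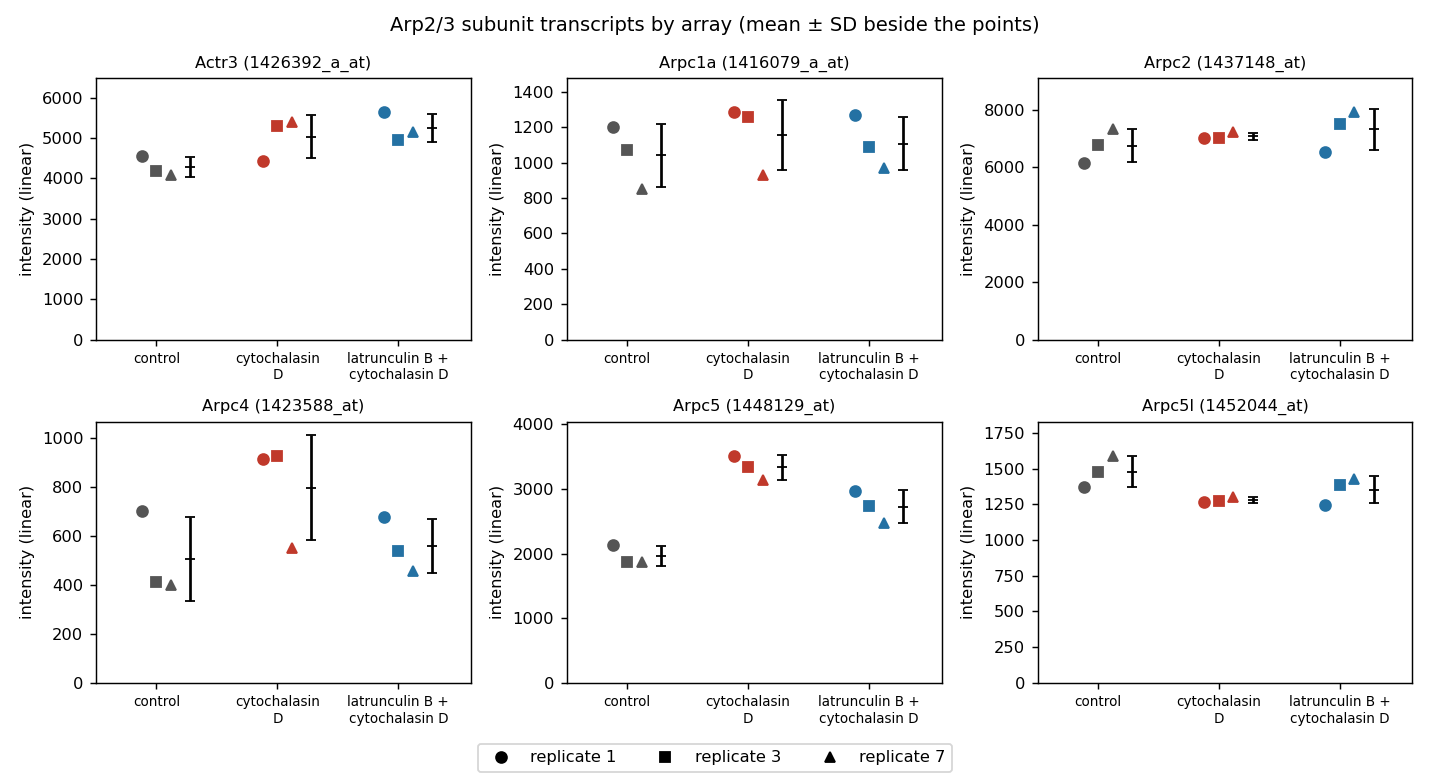
Intensity (linear, vertical axis from 0) of the brightest probe set of each of 6 subunit genes on the 9 arrays, by group, with marker shapes for the replicate number and the mean ± SD (n = 3) beside the points. Arpc5 runs from 1872 to 2137 in controls, from 2472 to 2971 in the double-drug group and from 3139 to 3516 with cytochalasin D, while the groups of Arpc1a and Arpc2 overlap.

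Arpc5l, the paralog of Arpc5, gave values on the other side. Its brightest probe set read 1372, 1477 and 1592 in control replicates 1, 3 and 7, then 1270, 1271 and 1303 with cytochalasin D, and 1244, 1386 and 1426 in the double-drug group. The cytochalasin D values all lay below the control values, and the double-drug values overlapped both. The log2 change with cytochalasin D was −0.20 (SE 0.07, 95% interval −0.36 to −0.04, limma adjusted p = 0.326). A second probe set, which by Affymetrix naming may read transcripts of more than a single gene, went from 699 ± 84.3 in controls to 525 ± 33.1 with cytochalasin D (SD, n = 3). Its log2 change was −0.40 (95% interval −0.73 to −0.07, limma adjusted p = 0.369), again with no overlap between the groups. Neither passed the test. In the double-drug group the changes were −0.13 and −0.09 (limma adjusted p = 0.9998 for both), with overlapping values.

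The paralogs were compared by the difference of their log2 values within an array, since levels of different probe sets have no common scale and only the shift of this difference between groups can be read. Arpc5 minus Arpc5l was 0.63, 0.34 and 0.23 in control replicates 1, 3 and 7, then 1.46, 1.38 and 1.26 with cytochalasin D, and 1.25, 0.97 and 0.79 in the double-drug group. The group means were 0.40 ± 0.21, 1.37 ± 0.10 and 1.002 ± 0.23 (SD, n = 3), so no value of a group lay within the range of another. The balance of the pair differed between the groups, with p = 0.00357 in an exact permutation test of the 9 arrays over the 3 groups. The test took the spread between group means, without a direction, and this is the smallest p that its 1680 arrangements can give. It treated all 9 arrays as exchangeable, although in every group the difference fell from replicate 1 to 3 to 7. With arrangements kept within replicate numbers, the exact permutation p was 0.0278. The shift from control was 0.96 with cytochalasin D, a 1.95-fold move towards Arpc5, and 0.60 with both drugs, and between the drug groups it was 0.36. With 3 arrays against 3 an exact permutation test cannot go below 0.1, and each of these pairwise shifts had that p. This was the only paralog pair with a tested probe set on both sides. Most of the shift came from Arpc5: its own change was 0.76 of the 0.96.

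**Figure D2:**
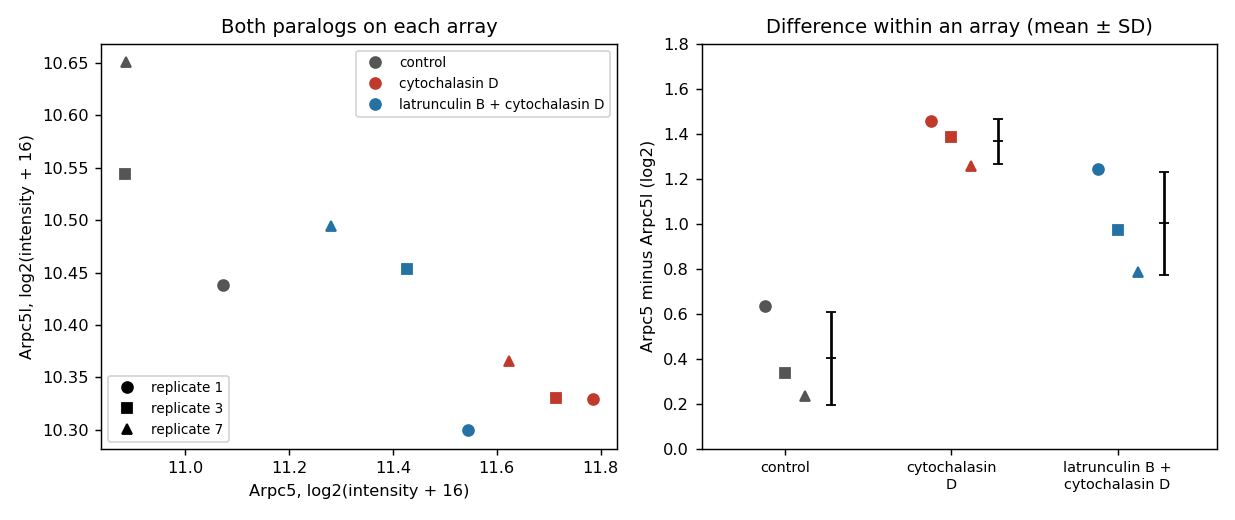
Left, log2(intensity + 16) of Arpc5 (horizontal) and Arpc5l (vertical) on each of the 9 arrays, by group (colour) and replicate number (shape). Right, Arpc5 minus Arpc5l within each array, in log2 units, with the mean ± SD (n = 3): the control arrays end at 0.63, the double-drug arrays run from 0.79 to 1.25 and the cytochalasin D arrays from 1.26 to 1.46.

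Arpc4, a core subunit that with Arpc2 binds the mother filament, was measured by 2 probe sets. The brighter read 702, 412 and 400 in control replicates 1, 3 and 7, then 915, 928 and 549 with cytochalasin D, and 676, 540 and 457 in the double-drug group. Control replicate 1 stood above cytochalasin D replicate 7, so the groups overlapped. The second read 387, 253 and 222 in controls, 516, 596 and 411 with cytochalasin D, and 401, 335 and 344 in the double-drug group, and here the cytochalasin D values lay above all others. The log2 changes with cytochalasin D were 0.65 (95% interval −0.05 to 1.36, limma adjusted p = 0.542) and 0.81 (95% interval 0.29 to 1.33, limma adjusted p = 0.203). The first lies below and the second above that of Arpc5, their SEs of 0.30 and 0.22 are over 2 times its SE, and neither passed. In the double-drug group the changes were 0.17 and 0.34 (limma adjusted p = 0.9998 for both), and with an array left out they ran from 0.027 to 0.43 and from 0.19 to 0.57. The lowest value of the first came without double-drug replicate 1, that of the second without control replicate 7, and the highest of both without control replicate 1.

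Actr3, the Arp3 subunit, was read by 3 bright probe sets. The brightest gave 4557, 4177 and 4092 in control replicates 1, 3 and 7, then 4435, 5291 and 5388 with cytochalasin D, and 5635, 4953 and 5147 in the double-drug group. Cytochalasin D replicate 1 lay within the control range, whereas all double-drug values lay above it. The log2 changes against control were 0.23 with cytochalasin D and 0.29 with both drugs (limma adjusted p = 0.424 and 0.618). The second brightest, built from the same deposited sequence, went from 3294 ± 396 in controls to 4724 ± 230 with cytochalasin D and 4373 ± 311 with both drugs (SD, n = 3). Its log2 changes were 0.52 (95% interval 0.30 to 0.74, limma adjusted p = 0.0523) and 0.41 (95% interval 0.19 to 0.63, limma adjusted p = 0.312), and the first was called in 5 of 16 alternative settings. The second was called with the replicate block (adjusted p = 0.0481). The third gave 0.32 and 0.36 (limma adjusted p = 0.118 and 0.225). In both of these probe sets each drug group lay wholly above the controls, and without the block none of the 3 passed the test in either comparison. Between the drug groups the changes of Actr3 ran from −0.06 to 0.11, with overlapping values, unlike the order seen for Arpc5; whether the genes differ in this was not tested.

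Arpc1a, the paralog of Arpc1b and a subunit that helps to join activators to the complex, and Arpc2, the large core subunit, had the smallest changes with cytochalasin D among the brightest probe sets of the genes. Arpc1a read from 849 to 1205 in controls, from 930 to 1285 with cytochalasin D and from 969 to 1269 with both drugs. Its log2 changes were 0.15 (95% interval −0.28 to 0.58) and 0.09 (−0.34 to 0.53). The first interval overlaps those of Arpc5 and of both Arpc4 probe sets, and a difference between these genes was not tested. Arpc2, the brightest of all, read from 6157 to 7319 in controls, from 7002 to 7215 with cytochalasin D and from 6539 to 7902 with both drugs. Its changes of 0.07 (95% interval −0.13 to 0.27) and 0.12 (−0.08 to 0.32) did not pass the test (limma adjusted p = 0.948 and 0.9998). A second Arpc2 probe set stayed between 8.47 and 13.0, close to the filter. Values of both genes followed the replicate number in the labels. In all 3 groups the lowest Arpc1a value was that of replicate 7 and the highest that of replicate 1. The second brightest Actr3 probe set had the same order, and Arpc5 was highest in replicate 1 in all 3 groups. For Arpc2 and the brightest Arpc5l probe set the order was the other way round, except that cytochalasin D replicates 1 and 3 tied for the lowest Arpc2 value. Whether the numbers mark a shared batch is not given in the sources used here.

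**Figure D3:**
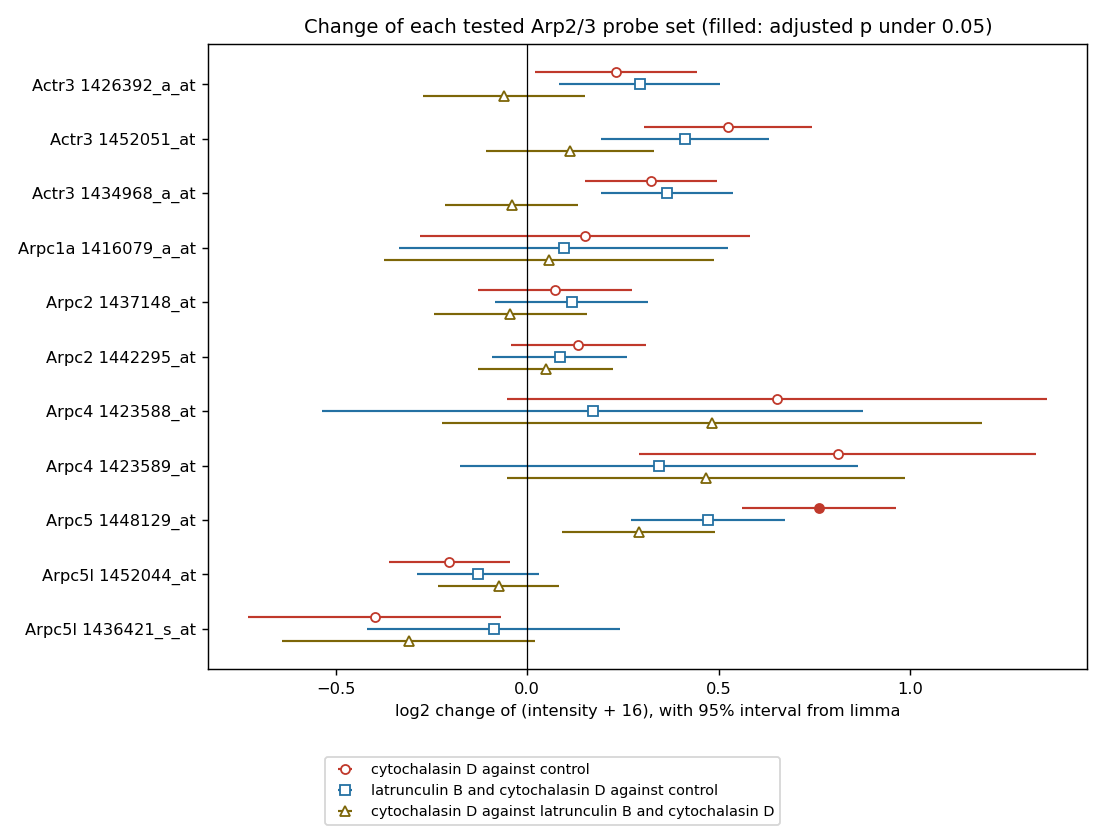
Log2 change of (intensity + 16), horizontal axis, for the 11 tested subunit probe sets in the 3 comparisons, the brightest of a gene first, with 95% intervals from limma; a filled marker has an adjusted p under 0.05. The single filled marker is Arpc5 with cytochalasin D against control at 0.76, and both Arpc5l probe sets lie below 0 in all 3 comparisons.

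Over the 11 probe sets, 9 had a positive and 2 a negative change with cytochalasin D, the 2 being those of Arpc5l. Of the 11, 7 had an unadjusted p under 0.05, as did 2752 of all 27010. The median was 0.23, beside −0.00098 over all 27010. In this comparison 4 lay wholly above the controls, as did 5.05% of all probe sets, and 2 wholly below, as did 6.45% of all. Against control the double-drug group had 0 of 11 called in limma, beside 0.111% called over all. An unadjusted p under 0.05 was found for 4 of the 11 and for 1425 of all. With the replicate block 2 of the 11 were called, of Arpc5 and Actr3, beside 0.455% of all. Their median was 0.17, beside 0.0032 over all. Wholly above the controls lay 4, beside 4.09% of all, and wholly below lay 0, beside 3.99%. Cytochalasin D against the double-drug group had 0 of 11 called in limma, beside 0.259% called over all. An unadjusted p under 0.05 was found for 1 of the 11 and for 1141 of all. There the median was 0.05, beside −0.0059 over all. The 2 probe sets that lay wholly higher, of Arpc5 and Arpc4, stand beside 2.92% of all, and 0 lay wholly lower, beside 3.33%. The first 2 comparisons share the control arrays, and the probe sets of a gene share its transcript, so these counts are not independent of each other.

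The genes that switch the complex on and off were read from lists made by role. Activators of the complex include the WASP family with its WIP partners, the WAVE and WASH complexes and cortactin, and coronins and GMF proteins act at branches to remove them. Of these genes 43 had a named probe set and 37 were tested. In limma 0 of the 37 were called in any of the 3 comparisons, beside 1.57%, 0.111% and 0.259% of all probe sets tested. There were 2, 0 and 2 of the 37 at an unadjusted p under 0.05. Over all 27010 probe sets 2752, 1425 and 1141 had such a p in the same comparisons. The median change of the 37 with cytochalasin D was −0.07. Coro1c, a coronin of fibroblast lamellipodia, had the largest value. Its intensity was 690, 435 and 390 in control replicates 1, 3 and 7, then 1122, 954 and 896 with cytochalasin D, and 810, 582 and 586 in the double-drug group. Cytochalasin D values lay above all the others, with a log2 change of 0.99 (SE 0.23, limma adjusted p = 0.138) that did not pass the test. Coro1b had a change of 0.13 (adjusted p = 0.523).

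Among the activators, Jmy, which both starts filaments and activates the complex, had a change of −0.15 with cytochalasin D (limma adjusted p = 0.413). Its values lay below those of controls on all 3 arrays, as did 6.45% of all probe sets, with replicate 1 almost level (149.19 against 149.23). Cttn, cortactin, which steadies branches, had −0.16 (adjusted p = 0.511), from a mean intensity of 6664 without and 5960 with the drug. Wipf1 and Wipf2, partners of WASP proteins, had −0.16 and 0.36 (adjusted p = 0.719 and 0.613). The WAVE complex members Abi2 and Brk1 had −0.13 and −0.08 (adjusted p = 0.705 and 0.859), and the WASH complex members Washc3 and Washc4 −0.17 and −0.22 (adjusted p = 0.516 and 0.946). Among 12 tested formins and other nucleators of unbranched filaments 0 were called in limma in any comparison, beside 1.57%, 0.111% and 0.259% of all probe sets. At an unadjusted p under 0.05 there were 0 of the 12, beside 2752, 1425 and 1141 of all 27010. The median change of these nucleators with cytochalasin D was −0.03. Fmn1 and Inf2 had the smallest p among them, with changes of −0.24 and −0.23 (adjusted p = 0.694 and 0.801).

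**Figure D4:**
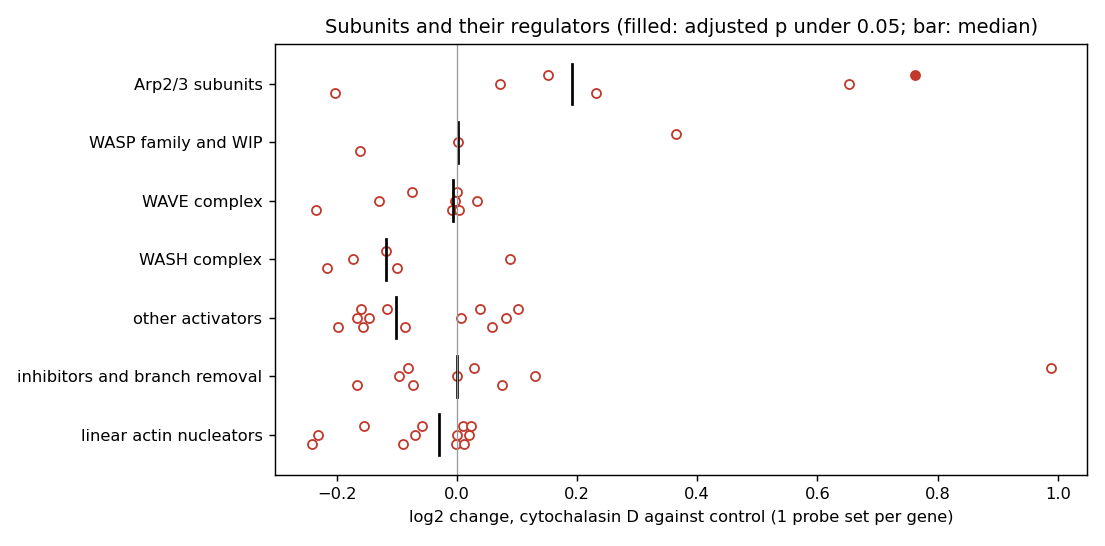
Log2 change with cytochalasin D against control (horizontal axis) of each tested gene, by list, with 1 probe set per gene; a filled marker has an adjusted p under 0.05 and the bar is the list's median. Arpc5 at 0.76 is the only filled marker, and Coro1c at 0.99 is the open marker farthest to the right.

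The genes whose pattern over the 9 arrays was most like that of Arpc5 were sought among 12643 genes by Pearson correlation of log2(intensity + 16). They were Irak2, a kinase of interleukin-1 and Toll-like receptor signalling (r = 0.993), Fbxo30, an F-box protein (r = 0.970), and Trib1, a pseudokinase (r = 0.963). These coefficients describe the closest of many genes over 9 arrays that fall into 3 groups, and carry no test. Irak2 had mean intensities of 142 in controls, 584 with cytochalasin D and 342 with both drugs. Trib1 had 228, 552 and 416, and Fbxo30 735, 1272 and 966. All 3 rose with cytochalasin D against control, by 1.92, 1.23 and 0.77 on the log2 scale for Irak2, Trib1 and Fbxo30 (limma adjusted p = 0.00216, 0.0146 and 0.0425), and none was called in the double-drug group against control without the block (adjusted p = 0.0709, 0.191 and 0.727). With the replicate block Irak2 was called there (limma adjusted p = 0.00299). These 3 genes were picked for likeness to Arpc5 on the same arrays, so a rise alongside it was largely built into the choice. Their p-values are descriptive and give no separate support.

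The promoters of Arpc5, Arpc4 and Actr3, the subunit genes with the largest changes, are shown because the drugs act on a coactivator of SRF, whose binding motif is the CArG box. The windows run from 250 bases before to 50 bases after the annotated start, 5′ to 3′, and come from RefSeq on build GRCm38.p6. Capitals mark matches to the CArG box, to CGGAAG, the core bound by ETS factors, and to CCAAT, the site of NF-Y.
Arpc5 promoter (chr1:152766292-152766591, + strand): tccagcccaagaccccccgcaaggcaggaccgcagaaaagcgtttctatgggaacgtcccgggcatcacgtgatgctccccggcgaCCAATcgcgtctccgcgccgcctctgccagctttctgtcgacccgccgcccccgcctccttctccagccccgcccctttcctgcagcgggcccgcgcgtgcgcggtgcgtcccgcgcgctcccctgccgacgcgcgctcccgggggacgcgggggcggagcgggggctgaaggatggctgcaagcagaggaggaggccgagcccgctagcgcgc
Arpc4 promoter (chr6:113377863-113378162, + strand): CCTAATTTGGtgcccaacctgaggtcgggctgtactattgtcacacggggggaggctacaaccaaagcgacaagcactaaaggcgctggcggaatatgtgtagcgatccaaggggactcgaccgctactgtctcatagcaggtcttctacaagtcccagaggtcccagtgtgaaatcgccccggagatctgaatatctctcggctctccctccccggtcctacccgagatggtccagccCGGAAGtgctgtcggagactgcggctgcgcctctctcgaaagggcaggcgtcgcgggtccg
Actr3 promoter (chr1:125435678-125435977, - strand): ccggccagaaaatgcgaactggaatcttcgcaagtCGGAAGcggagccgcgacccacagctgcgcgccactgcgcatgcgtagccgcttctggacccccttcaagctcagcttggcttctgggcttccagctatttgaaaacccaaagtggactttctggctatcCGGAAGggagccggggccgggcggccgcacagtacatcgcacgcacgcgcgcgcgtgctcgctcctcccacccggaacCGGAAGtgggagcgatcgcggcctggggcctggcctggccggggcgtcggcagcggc
Of the 9 subunit genes 8 had a promoter entry, all but Arpc5l. The search covered both strands, and took the CArG box by its full consensus, CC and GG around a stretch of A or T. A CArG box was in 1 of the 8 windows and in 1.63% of all 32851 promoters of this length. It was that of Arpc4, at −250 to −241 from the start, the outer edge of the window. CGGAAG was in 7 of the 8, all but Arpc5, and in 16.9% of all promoters. Actr3 held it 3 times and Arpc4 once. GGGCGG, the GC box bound by Sp1, was in 6 of the 8 and 35.7% of all, with 3 matches in Arpc5 that are left in lower case above. CCAAT was in 2 of the 8, Actr2 and Arpc5, and 37.4% of all, and TATAAA, the TATA box, in 0 of the 8 and 13.6% of all. CGGAAG and GGGCGG matches share bases in Arpc1b and Arpc3. The 8 windows ran from 52.7% (Arpc3) to 73.7% (Arpc5) G and C, where the median of all promoters was 52.7%. The shares over all promoters were not matched for G and C. A match is a stretch of letters, and its use in these cells was not measured.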

How the data were processed

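RNA of 9 NIH 3T3 cultures, 3 per group, was made into biotin-labelled cRNA for Affymetrix arrays, per the labels' protocols. The authors deposited normalized probe set intensities, not in logs. MAS5 and GCRMA appear in the submitters' processing notes, which give no version and leave unsaid which of these was used here. With 3 arrays in a group, precision is limited by their number. Identical arrays numbered 0. Replicate numbers were taken to pair groups where, at each of the 3 numbers, deviations from the group means correlated above 0.1. This held for the double-drug group with control (0.41 to 0.83) and with cytochalasin D (0.41 to 0.76), and not for control with cytochalasin D (0.076 to 0.71). The block was fitted over all 9 arrays, so it also took control and cytochalasin D arrays of the same number as paired. The labels name no shared batch, and this reading by pair of groups was chosen with the blocked calls known. Samples were grouped by the agent label. Symbols came from the platform annotation, updated through gene identifiers with a RefSeq table of GRCm38.p6; 64 control probe sets were left out.

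From the intensities, log2(intensity + 16) was computed, probe sets above the 40th percentile of their array on at least 3 arrays were kept, and limma 3.58.1 (R 4.3.3; lmFit, eBayes) was fitted with 1 coefficient per group on all 9 arrays, two-sided, with Benjamini-Hochberg adjustment over 27010 probe sets. The script was tested on simulated data. Named were all subunit probe sets, from each regulator list the called members or else the 2 with the smallest adjusted p with cytochalasin D against control, 6 drug response genes, and the 3 genes most like each called subunit. The members and lists were chosen with earlier results of these data known. Alternatives were other added constants, no filter, quantile normalization, a variance trend, fits on 2 groups, the replicate number as a factor and each array left out; their effect is given at the end.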

Additional observations from a re-analysis of the deposited data

How the results depend on the processing

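Arpc5 kept its call with cytochalasin D against control in 16 of 16 alternatives, with a log2 change from 0.72 to 0.82 and a limma adjusted p from 0.00289 to 0.0445, and the shift of Arpc5 minus Arpc5l ran from 0.88 to 1.08 (exact permutation p from 0.00357 to 0.0278). The second brightest Actr3 probe set came near the threshold: it was called, next to Arpc5, with an added constant of 1, with quantile normalization, with a variance trend, with the replicate number as a factor and without control replicate 1, which gave 2 subunit probe sets each, and its adjusted p ran from 0.00765 to 0.187 over all alternatives. Leaving out an array gave 1 to 2 subunit calls here and 0 in the other comparisons. Of the single changes recomputed, 512 kept direction and side of the threshold, 7 came to pass it and 9 changed sign, all uncalled and with an array left out. Their ranges with an array left out were −0.043 to 0.21 for Arpc1a and −0.18 to 0.052 for the dimmer Arpc5l probe set in the double-drug group against control. Between the drug groups they were −0.11 to 0.028 for the brightest and −0.10 to 0.034 for the third Actr3 probe set, −0.036 to 0.21 for Arpc1a and −0.12 to 0.014 for Arpc2.

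Counts over all probe sets moved more. Of the 423 for cytochalasin D against control, there were 159 in a fit on the 2 groups and 227 to 478 with an array left out. The 30 for the double-drug group against control became 14 with an added constant of 64, 8 without the filter, 15 with quantile normalization, 48 with a variance trend, 1 in a fit on the 2 groups and 0 to 42 with an array left out. The 70 between the drug groups became 16 without the filter, 9 in a fit on the 2 groups and 3 to 59 with an array left out. By over 1.5 times the first count moved without control replicate 3 (235) or 7 (242), cytochalasin D replicate 3 (227) or double-drug replicate 3 (276). The second did so without any array but control replicate 1, which gave 42, not over 1.5 times, and the third likewise without any but control replicate 1, which gave 59. The cause was not tested. In 8 of 9 pairs of same-numbered arrays the first-named group's array correlated better than with other numbers; the exception was control with cytochalasin D, replicate 3 (0.076 against 0.39). With the replicate block the 3 counts were 1044, 123 and 99, and 2, 2 and 0 subunit probe sets were called. The 2 were Arpc5 and the second brightest Actr3 probe set in both comparisons with control, with adjusted p = 0.0269 and 0.0481 in the second, and Coro1c was called with cytochalasin D (adjusted p = 0.0141). The pairs of Arpc1a with Arpc1b and of Actr2 with Actr3 had no tested probe set on one side, so their alternatives were not run.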
